A study of Mus musculus with 7 samples.

Results

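The proteasome subunit genes were taken as all genes on the array whose symbol begins with Psma, Psmb, Psmc, Psmd or Psme, read from probe sets that name 1 gene. They came to 42 of 8251 genes, on 53 of 12488 probe sets. The tissue was whole uterus of C57BL/6 mice, given in the labels as 10 to 11 weeks old, whose ovaries had been removed 7 days before death. Mice given a subcutaneous dose of 0.1 mg of dihydrotestosterone (DHT), an androgen that aromatase cannot turn into an estrogen, were killed 1, 3, 6, 12, 18 or 24 h later, and a single vehicle group was killed 24 h after its injection. All groups therefore share the loss of the ovaries, and only the 24 h DHT group was matched to vehicle in time after injection. Each group was 1 Affymetrix U74Av2 array of RNA pooled from several uteri, so there were no replicates.

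The proteasome degrades proteins that carry a chain of ubiquitin. Its 20S core is a barrel whose outer rings of alpha subunits form the gate and whose inner rings of beta subunits hold the cutting sites. The 19S particle caps the barrel, where a ring of ATPases unfolds the substrate and the non-ATPase subunits bind and remove ubiquitin. In the immunoproteasome, Psmb8, Psmb9 and Psmb10 take the places of the catalytic subunits Psmb5, Psmb6 and Psmb7, which changes the peptides made for MHC class I. These 3 genes answer to interferon and are high in cells of the immune system.

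The cutting subunits Psmb5 and Psmb6 and the immune subunits Psmb8, Psmb9 and Psmb10 are shown by the 120 bases ahead of their annotated start. They were chosen because the constitutive and the immune forms, each read from its brightest probe set, took different courses on these arrays. A dimmer Psmb5 probe set did not follow the brighter one. Psmb7, also a cutting subunit, had no promoter entry and is not shown. Sequences are from RefSeq, build GRCm38.p6, on the gene's strand from 5′ to 3′. Capitals mark matches to TGACNNNGC, the core of the antioxidant response element that NFE2L1 and NFE2L2 bind. The windows are chr14:54617996-54618115 on the minus strand for Psmb5, chr11:70525237-70525356 on the plus strand for Psmb6, chr17:34198075-34198194 on the plus strand for Psmb8, chr17:34187331-34187450 on the minus strand for Psmb9 and chr8:105938393-105938512 on the minus strand for Psmb10.
Psmb5: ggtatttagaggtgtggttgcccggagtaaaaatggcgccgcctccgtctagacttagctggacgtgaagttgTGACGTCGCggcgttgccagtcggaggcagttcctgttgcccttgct
Psmb6: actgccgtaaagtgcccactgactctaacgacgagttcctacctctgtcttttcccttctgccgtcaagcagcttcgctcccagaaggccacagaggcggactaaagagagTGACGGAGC
Psmb8: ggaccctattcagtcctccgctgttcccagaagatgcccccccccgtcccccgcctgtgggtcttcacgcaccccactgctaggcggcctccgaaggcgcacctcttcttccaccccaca
Psmb9: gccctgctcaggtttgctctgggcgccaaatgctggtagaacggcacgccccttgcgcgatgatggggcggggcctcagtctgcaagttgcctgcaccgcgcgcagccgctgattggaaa
Psmb10: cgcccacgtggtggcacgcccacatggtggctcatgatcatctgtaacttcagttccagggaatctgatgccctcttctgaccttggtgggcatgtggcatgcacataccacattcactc

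Both strands of the 250 bases ahead of the start were searched in the 36 of 42 genes found in the promoter table. TGACNNNGC lay in 5 of them (Psmb5, Psmb6, Psmc6, Psmd9 and Psmd12). This share is near the 11.5 percent of the promoters of all 27025 genes in the table. A form of the interferon-stimulated response element lay in Psmb3, Psmd4 and Psmd9, against 3.46 percent of all promoters. These matches describe letters and were not tested as binding sites. Their part in the courses of these genes was not tested either.

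Most genes of the constitutive core and the 19S particle had their highest signals at 6 and 12 h after DHT, while the 3 immunoproteasome genes stayed close to vehicle. Signals below 145.9, the 40th percentile of all values and here called the floor, were raised to it before log2 was taken, and genes with a mean above it were kept. Of the 42 genes, 39 were kept. Psmc4, an ATPase of the 19S ring, Psmd2, a scaffold subunit of its base, and Psmc3ip, a recombination factor that only shares the prefix, were at the floor on all 7 arrays and are not described further. Psme3ip1, a partner of the activator Psme3 and no subunit, was kept and lay between -0.29 and 0.12 on the log2 ratio to vehicle. Psme2, the partner of Psme1 in the 11S activator, is read only by probe sets that also name Psme2b and was not used here.

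Of the 39 genes, 18, 22, 32, 34, 31 and 27 lay above vehicle at 1, 3, 6, 12, 18 and 24 h. Over all 6326 genes kept, 48.1, 45.7, 46.3, 48.2, 45.8 and 48.1 percent lay above vehicle at these times. The median log2 ratio to vehicle of the 39 was -0.03, 0.06, 0.29, 0.31, 0.24 and 0.20 in the same order of times, and the median of all genes was 0.00 at every time. The proteasome genes were thus near the other genes at 1 and 3 h and above them from 6 h on. All 6 ratios share the lone vehicle array, and before 24 h an effect of DHT and one of the injection cannot be told apart. In pooled whole tissue, fewer cells of a type and less RNA per cell cannot be told apart either. Against the 1 h DHT array in place of vehicle, the 6, 12, 18 and 24 h medians were 0.29, 0.33, 0.22 and 0.21.

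The differences were small. At least 1.5-fold above vehicle, with the brighter signal at 291.8 or more, were 8 of the 39 at 6 h (background over all genes 5.9 percent), 7 at 12 h (7.43 percent), 4 at 18 h (4.76 percent) and 1 at 24 h (4.32 percent). None was so at 1 h (2.2 percent) and 1 was at 3 h (4.03 percent). Read from the brightest probe set of each gene, Psma1 and Psmd14 were at least 1.5-fold below vehicle at 3 h (3.65 percent of all genes). No other gene was so at any time. The background was 1.99, 5.11, 6.04, 4.41 and 3.97 percent at 1, 6, 12, 18 and 24 h. No gene reached 2-fold.

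**Figure D1:**
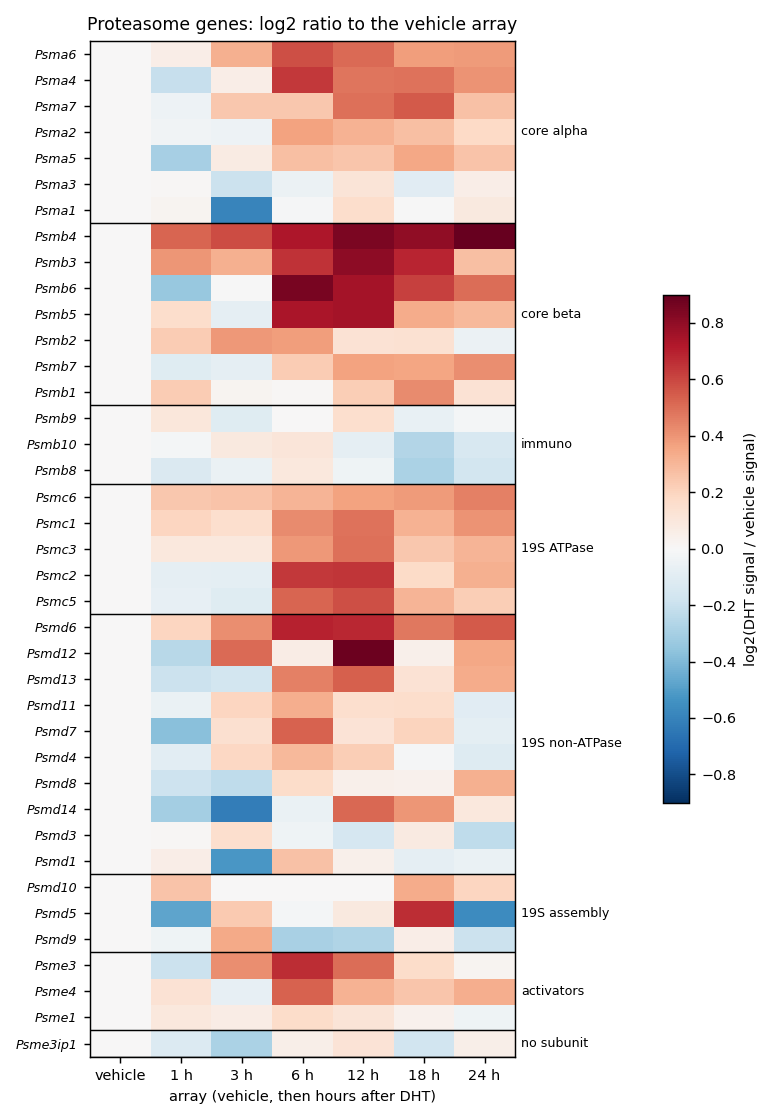
Log2 ratio to the vehicle array (color) of the 39 proteasome genes (rows, by class) on the 7 arrays (columns, vehicle and then hours after DHT). Red is denser from 6 h on in the core beta and 19S ATPase rows, and the immunoproteasome rows stay pale, between -0.28 and 0.15.

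Counted by the array on which a gene was highest, 14 of the 39 genes peaked at 6 h and 13 at 12 h, against 14.1 and 15.6 percent of all genes. A further 3, 5 and 4 peaked at 3, 18 and 24 h, against 15.8, 11.5 and 12.6 percent. None was highest on the vehicle or the 1 h array, where 16.3 and 14.2 percent of all genes were. Between neighbouring arrays the step from 3 to 6 h stood out. At that step 31 of the 39 genes were higher at 6 h (49.7 percent of all genes), with a median log2 ratio of 0.26. From 6 to 12 h 20 of the 39 were higher (47.2 percent of all genes), and from 12 to 18 h 12 were (42.3 percent). The remaining steps were near the background, with 22 higher at 3 than at 1 h (45.2 percent) and 19 higher at 24 than at 18 h (49.2 percent).

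**Figure D2:**
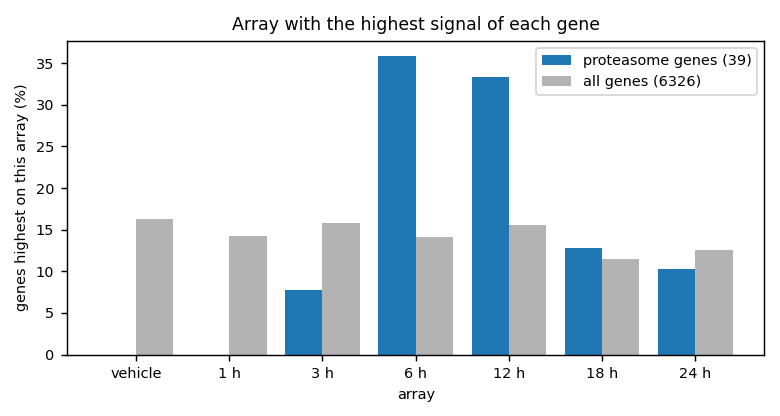
Percent of genes (y axis) whose highest signal lay on each array (x axis), for the 39 proteasome genes in blue and all 6326 genes in gray. The blue bars reach 35.9 percent at 6 h and 33.3 percent at 12 h, and are at 0 on vehicle and at 1 h.

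The 6 and 12 h arrays were also alike in the maker's controls. The 6 controls that read the opposite strand to actin or Gapdh had a mean log2 ratio to vehicle of 0.02, 0.31, -0.81, -0.98, 0.41 and -0.58 at 1 to 24 h, so the arrays on which they were lowest were those on which most proteasome genes were highest. The 9 spike-in controls had -0.02, 0.57, -0.26, -0.36, 0.11 and 0.45, also lowest at 6 and 12 h. The ratio of 3′ to 5′ signal of actin was between 1.03 and 1.19 over the 7 arrays, and that of Gapdh between 0.828 and 0.888. The part of these differences in the proteasome values was not tested. Markers of the labelled tissue were present, with 9 of 9 smooth muscle, 11 of 12 epithelial, 10 of 12 stromal and 9 of 9 endothelial marker genes on the array kept. The summed signal of the stromal markers was highest at 24 h (80122 at 24 h and 56570 on vehicle), as was that of the smooth muscle markers (67014 at 24 h and 42718 on vehicle), later than the proteasome genes. Dcn had the largest stromal signal, 19861.7 on vehicle and 23683.2 at 24 h. Col1a1 was at 7164.2 on vehicle and 17649.5 at 24 h, and Col3a1 at 4088.7 and 10513.2. Of the 10 stromal markers, 5 lay above vehicle at 12 h and 7 at 24 h. Pdgfra, Fbln1 and Thy1 had log2 ratios of -0.14, -0.42 and -0.61 at 24 h. The 6 adipocyte and 3 erythrocyte markers kept had median log2 ratios between -0.54 and -0.20 and between -0.11 and 0.28. Of 5 ovary markers on the array, only Star and Fshr were kept, and Star was above the floor on just vehicle and 24 h. Fshr was above the floor on every array, with a signal of 323.3 on vehicle, 211.1 at 6 h and 482.7 at 18 h. Its log2 ratio was -0.61 at 6 h and 0.58 at 18 h.

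Among the 7 alpha subunits of the core, which form the outer rings and the gate, 5 lay above vehicle at 6 h and 7 at 12 h, with medians of 0.27 and 0.31. Psma6 had the highest mean ratio of this class. Its signal was 1820.2 on vehicle and then 1897, 2270.1, 2723, 2594, 2359 and 2377 at 1, 3, 6, 12, 18 and 24 h. All 6 DHT arrays were above vehicle, the 6 h array most. Psma4 was below vehicle at 1 h, with a log2 ratio of -0.21, and was 0.63 at 6 h and 0.40 at 24 h. Psma1 had the lowest mean ratio, with a signal of 351.7 on vehicle and 357.8, 233.1, 349.4, 392.3, 350.9 and 374.2 at 1 to 24 h. Only its 3 h array stood apart, below the others. Psma2, Psma5 and Psma7 lay below vehicle at 1 h, at -0.03, -0.30 and -0.05, and above it from 6 h on, where their highest log2 ratios were 0.36, 0.35 and 0.55. Psma3 stayed between -0.19 and 0.11 on a probe set that the maker marks as shared within a gene family.

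The 7 constitutive beta subunits had the highest medians of any class, 0.65 at 6 h and 0.75 at 12 h, and all 7 lay above vehicle at 6, 12 and 18 h. At 1, 3, 18 and 24 h their medians were 0.23, 0.03, 0.43 and 0.29. Psmb6, the subunit that cuts after acidic residues, had a signal of 914.9 on vehicle and 722.9, 911.0, 1652, 1538, 1404 and 1298 at 1 to 24 h. The 4 arrays from 6 h on lay above the 3 others, and the log2 ratio was 0.85 at 6 h. Psmb5, whose site cuts after hydrophobic residues, had 1080.1 on vehicle and 1204, 1019, 1797, 1814, 1359 and 1322 at 1 to 24 h, again highest at 6 and 12 h. A dimmer Psmb5 probe set did not follow it, with 430.0 on vehicle and 417.7, 455.4, 397.8, 515.3, 301.0 and 453.1 at 1 to 24 h. The brighter Psmb5 set carries the maker's mark for probes shared between transcripts.

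Psmb7, which cuts after basic residues, had a signal of 849.9 on vehicle and 787.4, 804.5, 995.5, 1093, 1088 and 1137 at 1 to 24 h. Its 12, 18 and 24 h arrays lay above all others, on a probe set of the family type. Psmb4, a structural beta subunit, was higher than vehicle on every DHT array, with 1733 on vehicle and 2488, 2608, 2867, 3121, 3018 and 3227 at 1 to 24 h. Its log2 ratio was 0.52 at 1 h and 0.90 at 24 h, the highest of the 39 genes on both arrays. This rests on a single probe set of the family type, since the other Psmb4 sets were at the floor on at least 6 arrays. Psmb3, another structural subunit, had 1581 on vehicle and 2077, 1972, 2479.8, 2765, 2544 and 1904 at 1 to 24 h, and was likewise above vehicle throughout. Psmb1, also structural, had the lowest mean ratio of this class, with 1386 on vehicle and 1623, 1413, 1393, 1619.5, 1861 and 1518 at 1 to 24 h. Its other probe set above the floor was also above vehicle on all DHT arrays, by 0.08 to 0.36. Psmb2, a structural subunit too, had an early course of its own, with log2 ratios of 0.23, 0.39, 0.37, 0.13, 0.13 and -0.05 at 1 to 24 h.

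**Figure D3:**
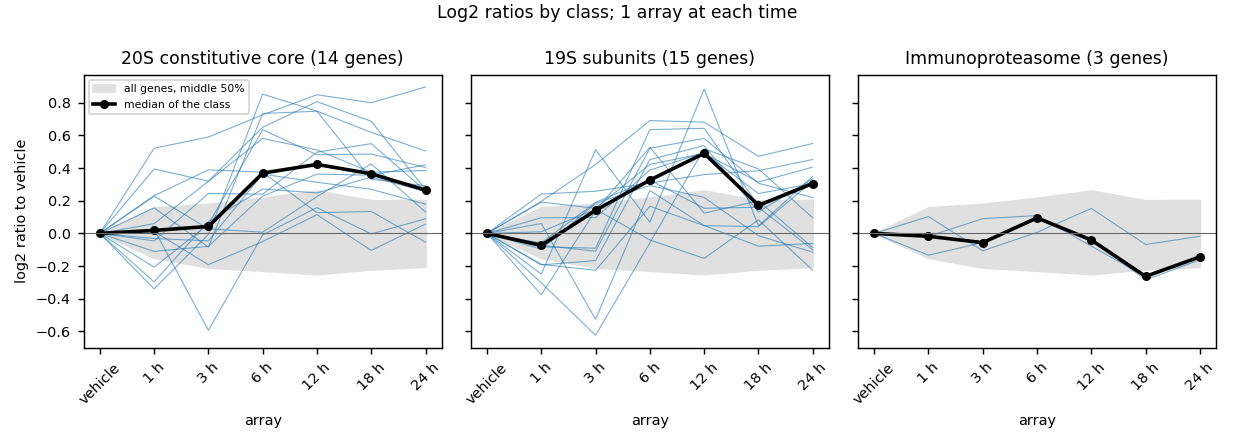
Log2 ratio to vehicle (y axis) on each array (x axis) for the genes of the constitutive 20S core, the 19S subunits and the immunoproteasome. Thin lines are genes, the black line with points is the class median, and the gray band is the middle 50 percent of all genes; at 12 h the median is 0.42 for the core, 0.49 for the 19S subunits and -0.04 for the immunoproteasome.

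The ATPases of the 19S ring, which pull the substrate into the core, lay close together. All 5 that were kept lay above vehicle at 6, 12, 18 and 24 h, with medians of 0.42, 0.49, 0.31 and 0.32, and their ratios at 12 h lay between 0.36 and 0.64. Psmc2 had a signal of 929.4 on vehicle and 877.8, 872.7, 1444, 1452, 1047 and 1159 at 1 to 24 h. Psmc5 had 758.6 on vehicle and 721.0, 703.3, 1089, 1135, 938.4 and 883.6 at 1 to 24 h. Both were highest at 6 and 12 h and slightly below vehicle at 1 and 3 h. Psmc6 was above vehicle from 1 h on, with 2535 on vehicle and 2996, 3031, 3139.7, 3253, 3308 and 3468 at 1 to 24 h. Psmc1 and Psmc3 were above vehicle throughout as well, and both were highest at 12 h with a log2 ratio of 0.49, for Psmc3 on a probe set of the family type. The 2 dimmer Psmc3 probe sets were also above vehicle on all DHT arrays but were highest at 1 h (0.58) and at 18 h (0.24).

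The 10 non-ATPase subunits varied more, with medians of -0.14, 0.14, 0.28, 0.19, 0.11 and 0.02 at 1 to 24 h. Psmd6, a subunit of the lid, had the highest mean ratio and was above vehicle on all DHT arrays, with 1061 on vehicle and 1215, 1421, 1712, 1701, 1471 and 1554 at 1 to 24 h. Psmd13, another lid subunit, was 0.45 at 6 h and 0.54 at 12 h. Psmd12, also of the lid, was 0.88 at 12 h but 0.07 at 6 h and 0.05 at 18 h, on a probe set of the family type. Psmd14, the enzyme that removes ubiquitin from the substrate, was -0.62 at 3 h and 0.52 at 12 h. Psmd1, a scaffold of the base, had the lowest mean ratio, with 1039 on vehicle and 1084, 721.5, 1247, 1074, 984.1 and 996.1 at 1 to 24 h. Psmd3, a lid subunit, and Psmd4, a ubiquitin receptor, stayed between -0.23 and 0.29. Psmd7, a lid subunit that pairs with Psmd14, was 0.53 at 6 h and at most 0.20 at any other time, and Psmd8, of the lid too, was between -0.23 and 0.32.

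Psmd11, a lid subunit, was read by 3 probe sets that did not agree in direction. Over the late arrays (12, 18 and 24 h) the brightest had a mean log2 ratio of 0.07 ± 0.15, another 0.38 ± 0.19 and the third, of a type with fewer usable probes, -0.41 ± 0.54 (SD, n = 3 arrays at different times). The log2 ratios of the set with fewer usable probes were -0.63, -0.37, -0.74, -0.98, 0.08 and -0.32 at 1 to 24 h. The signal of Psmd11 on the brightest set was 2160.0 on vehicle and 2073, 2464, 2708, 2403, 2413 and 2015 at 1 to 24 h.

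The 3 chaperones that help to assemble the 19S base showed no common course, with medians of -0.02 at 6 h and 0.00 at 12 h. Psmd10 had a signal of 145.8 on vehicle and 174.6, 127.0, 144.8, 121.6, 183.7 and 167.1 at 1 to 24 h, which put it at the floor on 4 of the 7 arrays. Psmd9 had 595.6 on vehicle and 580.0, 752.9, 486.4, 492.6, 620.8 and 519.8 at 1 to 24 h, lower at 6 and 12 h than on vehicle. Its probe set is of the type with fewer usable probes. Psmd5 was 0.67 at 18 h and -0.56 at 24 h, the widest swing between neighbouring arrays among these 3 genes.

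The activators differed by type. Psme3, which forms the nuclear 11S activator, had 715.7 on vehicle and 627.1, 956.5, 1132, 1014, 803.2 and 729.6 at 1 to 24 h, highest at 6 h and back near vehicle at 24 h. Psme4, the single-chain activator PA200, was 0.53 at 6 h and 0.33 at 24 h. Psme1, the interferon-inducible 11S subunit, stayed between -0.04 and 0.16, with 1619.9 on vehicle and 1728, 1694, 1816, 1759, 1664 and 1578 at 1 to 24 h.

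The median log2 ratio of the 3 immunoproteasome genes was -0.02, -0.06, 0.10, -0.04, -0.26 and -0.14 over the course, and all 3 lay below vehicle at 18 and 24 h. Psmb8 had a signal of 1184 on vehicle and 1079.9, 1139, 1265, 1152, 972.2 and 1059 at 1 to 24 h. Psmb9 had 455.3 on vehicle and 488.9, 422.8, 457.3, 506.2, 434.3 and 449.8 at 1 to 24 h. Psmb10 had 1042 on vehicle and 1029, 1109, 1124, 987.2, 868.2 and 943.3 at 1 to 24 h. For Psmb8 and Psmb10 the lowest array was 18 h and the highest 6 h, and no array differed from vehicle by as much as 1.5-fold.

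Each immune subunit was set against the constitutive subunit whose place it takes by the difference of their log2 ratios to vehicle. For Psmb8 minus Psmb5 this difference was -0.29, 0.03, -0.64, -0.79, -0.62 and -0.45 at 1 to 24 h. For Psmb9 minus Psmb6 it was 0.44, -0.10, -0.85, -0.60, -0.69 and -0.52. For Psmb10 minus Psmb7 it was 0.09, 0.17, -0.12, -0.44, -0.62 and -0.56. All 3 differences were below 0 on each of the 4 arrays from 6 h on. The dimmer Psmb5 probe set gave another picture, since Psmb8 minus that set was -0.09, -0.14, 0.21, -0.30, 0.23 and -0.24.

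The differences were compared between the late arrays and the early arrays (1, 3 and 6 h), 3 arrays each, with a two-sided exact permutation test whose smallest possible p is 0.1, so that none could pass. The late mean of Psmb10 minus Psmb7 was -0.54 ± 0.09 and the early mean 0.05 ± 0.15 (SD, n = 3; exact permutation p = 0.1, adjusted over the 3 pairs 0.3). For Psmb8 minus Psmb5 the late mean was -0.62 ± 0.17 and the early mean -0.30 ± 0.33 (exact permutation p = 0.3, adjusted 0.4). With the dimmer Psmb5 set, outside the adjustment, these means were -0.10 ± 0.29 and -0.01 ± 0.19 (exact permutation p = 0.6). For Psmb9 minus Psmb6 the late mean was -0.60 ± 0.08 and the early mean -0.17 ± 0.65 (exact permutation p = 0.4, adjusted 0.4). The early group holds the 6 h array, on which Psmb8 minus Psmb5 and Psmb9 minus Psmb6 lay within or below the range of the late ones.

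**Figure D4:**
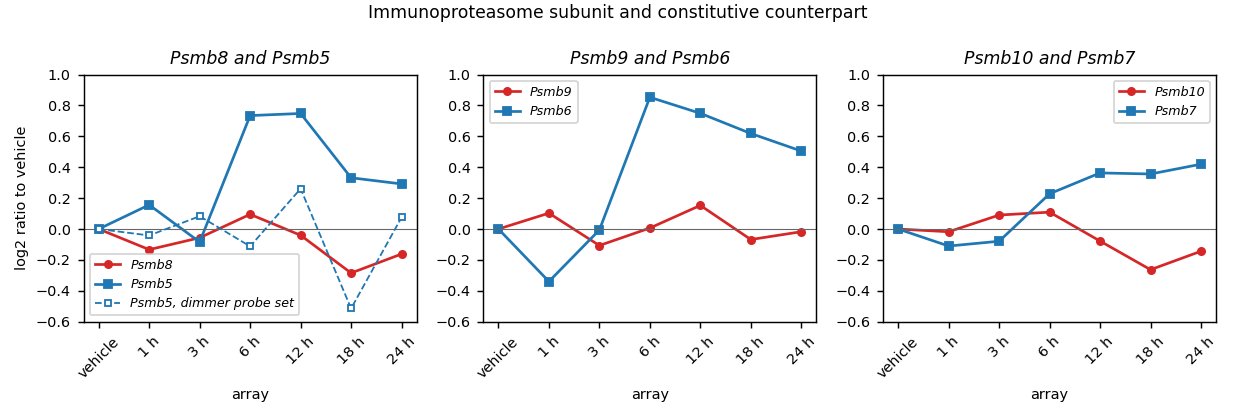
Log2 ratio to vehicle (y axis) on each array (x axis) of each immunoproteasome subunit (red circles) and the constitutive subunit whose place it takes (blue squares), with the dimmer Psmb5 probe set as a dashed line. Psmb5 and Psmb6 reach 0.75 and 0.85 while Psmb8 stays between -0.28 and 0.10 and Psmb9 between -0.11 and 0.15; the dashed line lies between -0.51 and 0.26.

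Genes that work beside the immunoproteasome showed no common increase, and most lay below vehicle from 3 h on. Of 22 class I and interferon genes on the array, 19 were kept. Their median log2 ratio was 0.08, -0.22, -0.16, -0.21, -0.13 and -0.04 at 1 to 24 h, with 14, 4, 4, 5, 5 and 7 above vehicle. Over all genes kept, 48.1, 45.7, 46.3, 48.2, 45.8 and 48.1 percent lay above vehicle at these times. Igtp, an interferon-induced GTPase, and Tap2, a chain of the peptide transporter, had the lowest mean ratios, at -0.93 for Igtp at 18 h and -1.22 for Tap2 at 24 h. Pdia3, an ER enzyme that also loads class I, and Ifngr2, a chain of the interferon gamma receptor, had the highest, at 1.32 for Pdia3 at 12 h and 0.64 for Ifngr2 at 24 h. The marker genes of leukocytes, in which immune subunits are high, were kept for 14 of 19 on the array, and Ptprc, Cd3e, Cd3g, Cd8a and Fcgr3 were not. Their median log2 ratio was -0.01, -0.09, -0.08, -0.26, -0.30 and -0.08 at 1 to 24 h. Their summed signal was between 13339 at 18 h and 16927 at 6 h on the DHT arrays and 17909 on vehicle. The class II genes Cd74 and H2-Aa had the highest signals on vehicle, 5848.9 and 3064.1, and were at 3748.8 and 1957.9 at 18 h. Cd14, Cd68 and Cd53 lay slightly above vehicle at 18 h. On this array, where Psmb8 and Psmb10 were lowest, the leukocyte sum was also lowest, and its part in their values was not tested. Cd79a and Coro1a had the lowest mean ratios of these markers, with log2 ratios down to -0.86 for Cd79a, a bound since the DHT signal was at the floor, and -0.70 for Coro1a. Cd53 and Itgb2 had the highest, up to 0.65 for Cd53.

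Of the genes for assembly factors, ubiquitin shuttles and partners of the proteasome, 17 of 18 on the array were kept. Their medians were 0.00, 0.06, 0.15, 0.08, 0.07 and 0.07 at 1 to 24 h, and 11 and 12 of the 17 lay above vehicle at 6 and 12 h. Psmg2, an assembly chaperone of the core, had the highest mean ratio, and its 6 and 12 h log2 ratios of 0.73 and 1.36 are lower bounds, because vehicle was under the floor. Ubqln2, a shuttle for ubiquitinated proteins, followed with 0.49 at 6 h. Sqstm1, the autophagy receptor p62, was lowest, at -0.78 at 12 h, and Psmg3, another core chaperone, was -0.56 at 6 h. Psmg3 and the core assembly factors Psmg4 and Pomp lay below vehicle on every DHT array, between -0.56 and -0.11. Psmg1, also a core chaperone, lay between -0.11 and 0.43. Nfe2l1, the factor that drives proteasome genes when degradation is short, had a signal of 1942 on vehicle and between 1867 and 2481 on the DHT arrays.

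No proteasome gene passed a test across arrays. limma compared the 3 late arrays, the 3 early arrays and vehicle, with Benjamini-Hochberg adjustment over 8421 probe sets. Among the 46 probe sets of proteasome genes kept, 0 passed an adjusted p of 0.05 in any of the 3 contrasts. Over all probe sets, 0.309 percent passed as lower and 0.0 percent as higher for late against vehicle, 0.273 and 0.0 percent for early against vehicle, and 0.0 percent in both directions for late against early. At an unadjusted p under 0.05 for late against vehicle, 7 of the 46 were higher and 0 lower, against 5.53 and 6.19 percent of all probe sets. For early against vehicle these counts were 3 and 0 of the 46, against 2.49 and 3.84 percent. For late against early they were 3 and 2, against 5.76 and 4.49 percent. The median log2 difference of the 39 genes was 0.26 for late against vehicle (33 above 0) and 0.11 for early against vehicle (31 above 0). For late against early it was 0.13 (29 above 0), and that of all probe sets was 0.00 in each contrast. Of all probe sets, at most 51.8, 51.0 and 48.3 percent lay above 0, in the same order. The early group holds the 6 h array, where the median log2 ratio of the 39 genes was 0.29, against -0.03 and 0.06 at 1 and 3 h. Late against early therefore cannot test the step from 3 to 6 h.

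The lowest adjusted p belonged to Psmb4, late against vehicle, with a log2 difference of 0.85 ± 0.10 SE and an adjusted p of 0.0625 in limma, above vehicle in 6 of 6 DHT arrays. The adjusted p lay between 0.0248 and 0.198 over the other settings tried. With 1 vehicle array, none of these p-values holds any spread of vehicle, so they do not settle whether Psmb4 differs from it. Psmc6, late against vehicle, had 0.40 ± 0.08 SE (adjusted p = 0.171). Late against early, Psmd14 had 0.66 ± 0.19 SE (adjusted p = 0.354) and Psmb7 0.37 ± 0.11 SE (adjusted p = 0.379). In that contrast all 3 late arrays lay above all 3 early ones for 5 of the 39 genes (Psma7, Psmb4, Psmb7, Psmc6 and Psmd14), against 8.49 percent of all genes, and below them for Psmb2 and Psmb10, against 7.27 percent. These shares are near the background. The spread in these tests comes from arrays at different times, and the fit lets the only vehicle array vary as much as they do.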

How the data were processed

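Signal intensity on a linear scale was deposited for 7 arrays, made by the authors with MAS5 (version not given in the sources used here), per the submitters' processing notes. With the lowest and highest 2 percent of values left out, each array averaged 500.2, so the deposited scaling was kept. Array medians lay between 227.4 and 237.0, and with arrays their number limits precision. Control probe sets (66) were left out of tests. Gene names came from the platform annotation, where 10833 probe sets name 1 gene and 396 several. Values were floored at the 40th percentile, log2 was taken, and 8421 probe sets with a mean above the floor were kept. A gene was read from its brightest probe set. Single times were described, and phases compared with limma 3.58.1 (variance trend, 4 residual degrees of freedom) in R 4.3.3. The DHT times joined in a phase stand in for replicates, and whether pools came from separate animals is not stated. The series text lists a 0.5 h group and the titles an 18 h group, and the titles were followed. Signals on all arrays are given for the cutting subunits, their immune counterparts and Psme1, for the highest and lowest mean ratio of each class, for genes at least 1.5-fold from vehicle at 2 or more times, and where probe sets disagree in sign. Other genes are given by ranges, and those named beyond that rule (such as Psma4, Psmb2, Psmd5, Psmd12, Psmd14, Psme4 and Nfe2l1) were chosen after their values were seen. The members and gene lists were chosen with earlier results of these data known. Alternatives changed the floor, scaling, filter, probe set rule, comparison array, fold and variance trend, or left out arrays.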

Additional observations from a re-analysis of the deposited data

How the results depend on the processing

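The medians by time and class moved by less than their spread between arrays of a phase (0.12 for all members on the log2 scale) under every alternative that gave a value, except that the immunoproteasome median at 3 h was 0.077 against the 1 h DHT array. That median also had no settled sign at 3 and 12 h: at 12 h it was 0.050 against the 1 h array, and against the mean of vehicle and 1 h it was 0.010 at 3 h and 0.026 at 12 h. All other medians kept their direction. For all members, the spread between arrays of a phase holds the rise from 3 to 6 h, which makes it a wide measure. Counts at least 1.5-fold higher, which are small, moved more. Over the alternatives at this fold, the 6 h count lay between 6 and 9 and the 12 h count between 5 and 10. With a floor at the 20th percentile they were 1 at 1 h and 2 at 24 h, with quantile normalization 0 at 3 h, and with the mean of all probe sets of a gene 0 at 3 h and 0 at 24 h. Against the 1 h DHT array they were 3 at 3 h and 3 at 24 h, and against the mean of vehicle and 1 h, a choice made after seeing the data, 2 at 24 h. At a lower threshold, a log2 ratio of 0.32, the counts were 2, 6, 18, 18, 14 and 11 at 1 to 24 h, and at 2-fold 0 at every time. In limma, 1 probe set (Psmb4) passed for late against vehicle with a floor at the 60th percentile and 1 without the filter, and its difference of 0.85 was unmoved. No proteasome probe set passed when any 1 array was left out or without a variance trend. No paired analysis was possible because each group has 1 array. With 1 array per time, no difference at a single time has a replicate check.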
